A study of Arabidopsis thaliana with 8 samples.

Results

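The 5 TCP genes whose transcripts are targets of miR319 (TCP2, AT4G18390; TCP3, AT1G53230; TCP4, AT3G15030; TCP10, AT2G31070; TCP24, AT1G30210) were examined in inflorescences of Arabidopsis. They were chosen by locus identifier, and all 5 were among the 28775 genes counted. Total RNA was taken from untreated inflorescences, either of Col-0 as wild type or of the mutant labelled janus, which is the janus-2 allele of the study. janus-2 is a hypomorphic CRISPR/CAS9 allele with a short deletion in an exon of JANUS, the plant homolog of the spliceosomal protein SF3B4, and was represented by 1 line that had been backcrossed to Col-0. The janus-2 plants are small, with serrated leaves and no fertility, and these libraries compare whole inflorescences of unlike plants. Each genotype had 2 mRNA libraries and 2 small RNA libraries, and the ages of the plants were not given in the labels. The study describes the 2 replicates of each assay as biological. Nothing in the labels says that replicates came from separate plants or days, and the p-values measure the spread between these libraries only.

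TCP proteins are plant-specific transcription factors that bind DNA through a shared basic helix-loop-helix domain. They fall into class I, the CYC/TB1 branch and the CIN branch, and the CIN branch holds the 5 targets of miR319 together with TCP5, TCP13 and TCP17, which carry no miR319 site. In Arabidopsis the CIN genes bring dividing organ cells to an end of growth and into differentiation, and they act in a largely redundant way in leaves, petals and other lateral organs. miR319 guides cleavage of the 5 transcripts, which keeps their products low in young organs. Plants with too much miR319 have crinkled leaves, and flowers with too little miR319 activity have narrow petals and poor anthers.

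The mRNA libraries held between 56360882 and 65578130 counts on genes, and values are given as CPM, the counts scaled to a common library size by the trimmed mean of M values (TMM). JANUS (AT2G18510) was checked first and had 54.9 and 54.2 CPM in the Col-0 libraries against 18.3 and 19.4 CPM in those of janus-2. Its mRNA was thus lower in the libraries labelled as the mutant, but gene counts do not show the deletion itself. As background to the marker genes, 27.2% of all 22990 tested genes were called lower and 18.5% higher, or 45.7% in all, by the thresholds given below. Of 12 genes of floral meristem and organ identity, 11 were tested, and 5 were lower and 6 not called. CLV3 was at or below 2 counts in every library. PI and AP3, which specify petals and stamens, were lower in janus-2 (log2 fold change -1.46 and -0.86), as were CAL (-1.04), SUP (-0.90) and SEP2 (-0.86), while AP1 (-0.46), SEP1 (0.27), AG (0.13), SEP3 (0.041) and LFY (0.059) did not reach the fold threshold and UFO (0.91) did not pass the test. All 16 tested tapetum genes were lower in janus-2. Among those with a mean of at least 1 CPM, the largest falls were in GRP17, ATA7 and MS1. Also lower in janus-2 were 16 of the 17 tested pollen genes, led by HTR10, ANX2 and PPME1. The summed level of the 19 listed pollen genes was 4079 and 4073 CPM in Col-0 against 195 and 200.4 CPM in janus-2. The summed level of the 16 tapetum genes was 2951 and 2899 CPM in Col-0 and 145 CPM in both janus-2 libraries, and 6 of 8 genes of dividing cells (CYCB1;1, CYCB1;2, CDKB1;2, CDKB2;1, CDKB2;2 and KNOLLE) were lower, with sums of 272 and 271 CPM against 165 and 166 CPM. Of 14 genes of photosynthesis, which mark green tissue, only LHCB4.1 was called (0.67, higher). In whole inflorescences, fewer cells of a type and less RNA per cell cannot be told apart. The part of these shifts in the levels of the TCP genes was not tested.

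TCP10 was the only 1 of the 5 genes that passed both thresholds, with an adjusted p no higher than 0.05 and a change by 1.5-fold or more in either direction. TCP24 and TCP2 were higher and TCP4 was lower in janus-2 by less than that fold, and TCP3 did not pass the test. Over all 22990 tested genes 18.5% were called higher and 27.2% lower by both thresholds, or 45.7% in all. The replicates were so close, with a common coefficient of variation of 2.26%, that 83.1% of all tested genes passed the adjusted p alone (40.6% higher and 42.5% lower). The call of 1 gene of 5 as higher is near the share of 18.5% called higher. None of the 5 was called lower, against 27.2%, so that fewer were called than the 45.7% in all. Whether 1 of 5 differs from that share was not tested. The passing of the adjusted p by 4 of 5 is near the background of 83.1%. In 4 of the 5 genes the genotypes did not overlap (3 above and 1 below Col-0), and among all tested genes this held for 90.8% (44.2% above and 46.6% below). The median log2 fold change of the 5 was 0.18, against -0.019 over all tested genes.

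TCP10, which acts with the other CIN genes in leaf and petal growth, had 68.8 and 68.7 CPM in Col-0 (3892 and 4535 counts). In janus-2 it had 111 and 117 CPM (7018 and 6846 counts). Both janus-2 libraries lay far above both Col-0 libraries, and the Col-0 libraries were nearly equal. The mean rose from 68.7 ± 0.033 to 114 ± 3.95 CPM (SD, n = 2), which is 1.66-fold. On the log2 scale the rise was 0.73 ± 0.043, where the error is the standard error given by DESeq2, as in all values of this form (quasi-likelihood test of edgeR, Benjamini-Hochberg adjusted p = 1.85e-116). In size this change was larger than that of 60.6% of the tested genes. The same share was 47.5% for TCP24, 26.7% for TCP4, 20% for TCP2 and 11.3% for TCP3.

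TCP24 is known to repress wall thickening in anthers, and its protein binds ABAP1 to hold back DNA replication. It had 34.7 and 34.8 CPM in Col-0 (1962 and 2298 counts) and 51.7 and 45.9 CPM in janus-2 (3269 and 2696 counts). The janus-2 libraries were both above Col-0 but lay further from each other than those of Col-0. The mean went from 34.7 ± 0.11 to 48.8 ± 4.1 CPM (SD, n = 2), a ratio of 1.41. The log2 fold change of 0.49 ± 0.067 (edgeR adjusted p = 1.75e-29) stayed below the threshold of 0.585 that stands for 1.5-fold.

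TCP2, which promotes differentiation of leaf cells, had 52.8 and 54.8 CPM in Col-0 (2988 and 3615 counts). In janus-2 it had 61.5 and 60.6 CPM (3883 and 3557 counts). All 4 values lay within a narrow range, with janus-2 slightly above Col-0. The mean went from 53.8 ± 1.4 to 61.0 ± 0.596 CPM (SD, n = 2), a log2 fold change of 0.18 ± 0.051 (edgeR adjusted p = 1.77e-06) and a ratio of 1.13.

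TCP4, the best studied of the 5, limits growth of leaves and petals and activates the jasmonate gene LOX2. It was the only 1 of the 5 that was lower in janus-2, with 41.9 and 40.5 CPM in Col-0 (2370 and 2674 counts) against 33.8 and 35.6 CPM (2138 and 2089 counts). The mutant libraries lay below the wild-type libraries by a margin wider than the distance between replicates. The mean in janus-2 was 84.3% of that in Col-0, or -0.25 ± 0.064 as a log2 fold change (edgeR adjusted p = 8.29e-08).

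TCP3, which represses boundary genes of the CUC group, was counted far less often than the others. Its counts were 133 and 174 in Col-0 (2.35 and 2.64 CPM) and 181 and 146 in janus-2 (2.86 and 2.49 CPM). The libraries of the genotypes overlapped. The log2 fold change was 0.10 ± 0.24 (edgeR adjusted p = 0.582), and the 95% interval from DESeq2 ran from -0.37 to 0.56. The data were thus compatible with changes of TCP3 within this interval, in either direction. The non-coding gene AT1G53233, as annotated by RefSeq on the TAIR10.1 assembly, overlaps 1525 bases, or 78.7%, of the span of TCP3. That gene had 21 and 31 counts in Col-0 against 36 and 45 in janus-2. Whether the counting used strand is not given in the sources used here, so that reads of both genes cannot be told apart, and the level of TCP3 is uncertain to that extent. None of the other 4 genes overlapped a neighbour in this annotation.

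**Figure D1:**
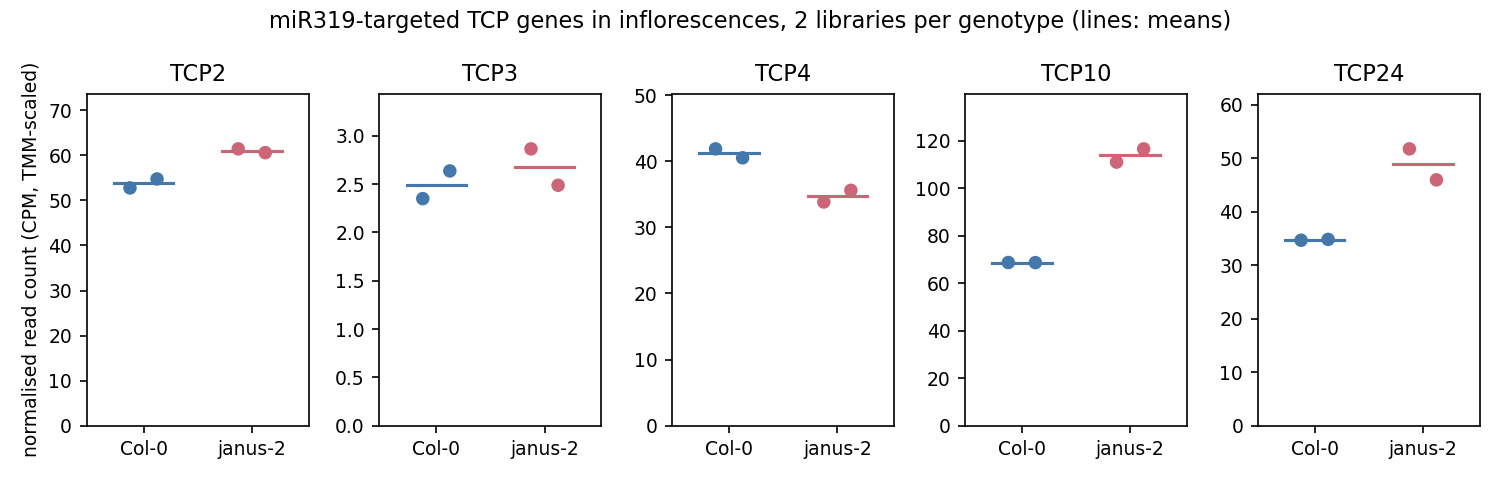
Normalised read counts (CPM, TMM-scaled, each vertical axis from 0) of the 5 genes in the 2 Col-0 and the 2 janus-2 libraries, with 1 point per library and lines at the means. TCP10 goes from 68.7 to 114 CPM, TCP24 and TCP2 lie higher and TCP4 lower in janus-2, and the genotypes overlap in TCP3.

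To set the genes against each other, CPM were divided by the span of each gene in the RefSeq annotation, introns included. On this scale the order of levels in Col-0 was TCP10 (31.8 and 31.7 CPM per kb), TCP2 (19.8 and 20.6), TCP4 (16.9 and 16.4), TCP24 (10.1 in both) and TCP3 (1.21 and 1.36). No neighbours in this order overlapped in Col-0. In janus-2 TCP10 stood at 51.3 and 53.9 CPM per kb and TCP2 at 23.1 and 22.8. TCP4, at 13.7 and 14.4 CPM per kb, and TCP24, at 15.01 and 13.3, overlapped there and had no order on this scale. In CPM not divided by span, TCP4 lay above TCP24 in Col-0 and below it in janus-2. The log2 ratio of TCP4 to TCP24 was 0.27 and 0.22 in Col-0 against -0.61 and -0.37 in janus-2. TCP3 stayed last with 1.48 and 1.28 CPM per kb. Reads in the overlap of TCP3 with AT1G53233 may have been left out as ambiguous, so that its place in this order is uncertain in both genotypes.

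The mix of the 5 transcripts thus shifted towards TCP10. Its share of the summed CPM per kb was 39.8% and 39.6% in Col-0 against 49.1% and 51.0% in janus-2. The share of TCP4 was 21.2% and 20.4% in Col-0 against 13.1% and 13.6% in janus-2. The log2 ratio of TCP4 to TCP10 CPM was -0.72 and -0.76 in Col-0 and -1.71 in both janus-2 libraries, a difference of -0.97 between the means. Ratios within a library do not depend on the scaling of libraries. Of the 10 pairs of the 5 genes, 9 had ratios that did not overlap between the genotypes, and in 3 pairs the shift exceeded 1.5-fold. Non-overlap was common in these data, as the levels of 90.8% of all tested genes did not overlap between the genotypes. The share for pairs of other genes was not computed, and the 10 pairs reuse the same 5 genes. With 2 libraries against 2 the smallest two-sided p of an exact permutation test is 0.333, and these ratios are given without a test.

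**Figure D2:**
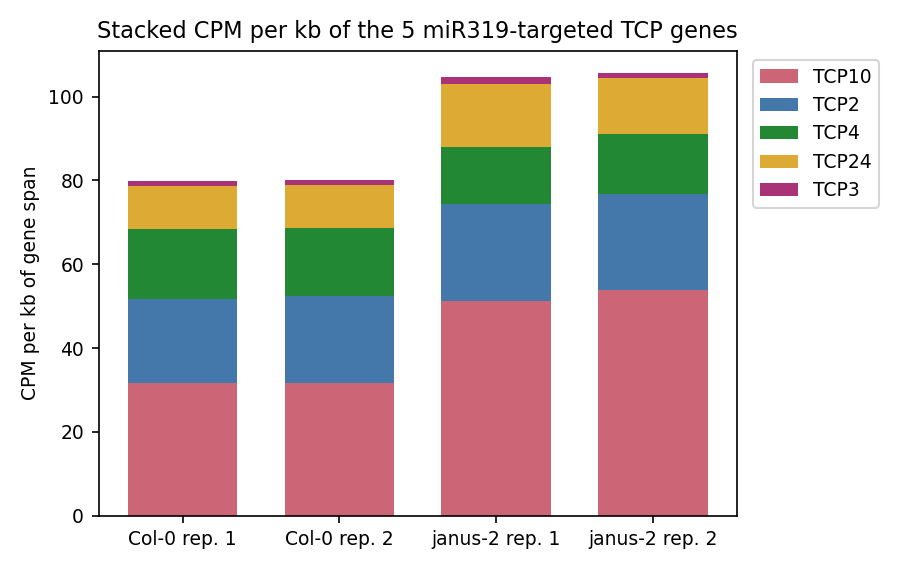
Stacked bars of CPM per kb of gene span for the 5 genes in each of the 4 mRNA libraries, from 0. The total was 79.8 and 80.2 in Col-0 against 104.6 and 105.7 in janus-2, and the segment of TCP10 grows while that of TCP4 shrinks.

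The summed CPM of the 5 genes was 200.4 and 201.4 in Col-0 against 261.0 and 261.3 in janus-2, a ratio of 1.3. The same sum over the 19 other TCP genes was 309.8 and 309.5 CPM in Col-0 against 399.0 and 400.3 CPM in janus-2, a ratio of 1.29. The net gain of the 5 was thus of nearly the same size as that of the other 19 pooled, although single genes moved in both directions in both groups. The branches differed, with ratios of 2.89 for the other CIN genes, 1.08 for CYC/TB1 and 1.22 for class I. The pooled sum consisted mostly of class I genes, with a mean of 287 CPM in Col-0.

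The 3 CIN genes without a miR319 site were all called, against 45.7% of all tested genes. Their fold changes were larger in size than that of any of the 5. TCP5, known to limit petal growth, had 2.97 and 2.56 CPM in Col-0 against 14.5 and 12.4 CPM in janus-2, a 4.87-fold rise (log2 fold change 2.29 ± 0.15, edgeR adjusted p = 2.75e-97). TCP13 rose 3.04-fold, from 8.23 and 7.47 CPM to 23.8 and 23.9 CPM (edgeR adjusted p = 2.56e-104). TCP17 fell from 2.72 and 2.35 CPM to 0.586 and 0.903 CPM, or by 1.77 ± 0.32 on the log2 scale (edgeR adjusted p = 7.22e-14). All 3 stood at lower counts than TCP2, TCP4, TCP10 and TCP24, and whether the CIN genes with and without the site differ as groups was not tested.

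In the CYC/TB1 branch all 3 genes were called, against 45.7% of all tested genes (27.2% lower and 18.5% higher). TCP18 (BRC1), which holds back axillary buds, rose from 2.53 and 2.79 CPM to 7.36 and 7.09 CPM (log2 fold change 1.44), and TCP1, an activator of brassinosteroid synthesis, fell by 1.29 on the log2 scale. TCP12 (BRC2) fell by 0.75 (edgeR adjusted p = 0.00224), but passed neither without Col-0 replicate 2 (-0.63, adjusted p = 0.0645) nor without janus-2 replicate 2 (-0.43, adjusted p = 0.137). Of the 13 class I genes 12 were tested, and 2 were lower, 1 was higher and 9 were not called, with a median log2 fold change of 0.10. The 2 lower genes were TCP19 (-1.05) and TCP6 (-2.84), the latter with only 4 and 5 counts in janus-2. The higher gene was AT5G08330 (0.77), known as TCP21 or CHE, a repressor of the clock gene CCA1, which RefSeq lists as TCP11.

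**Figure D3:**
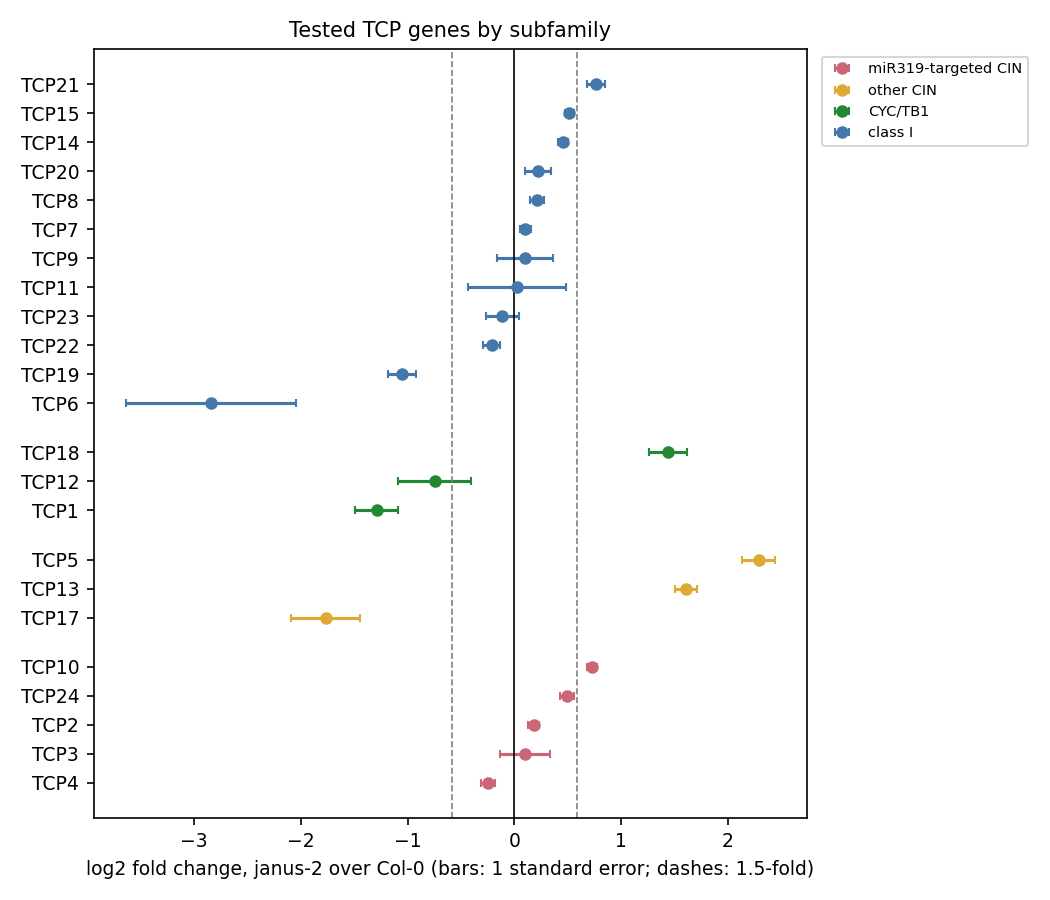
Log2 fold changes (janus-2 over Col-0, edgeR) of the 23 tested TCP genes by branch, with bars of 1 standard error from DESeq2 and dashed lines at 1.5-fold. The 5 targets of miR319 lie between -0.25 and 0.73, and the other 3 CIN genes between -1.77 and 2.29.

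The mature miR319 entries were read in the small RNA libraries, which held between 1950664 and 2160372 counts on 427 miRNAs. The libraries were tested in the same way but called by the adjusted p alone. None of the 3 entries passed the test, whereas 32.2% of the 304 tested entries did (14.1% lower and 18.1% higher). All 3 overlapped between the genotypes, and 67.8% of the tested entries did not. The entry miR319a had 4976 and 3516 CPM in Col-0 (11628 and 7543 counts) and 4041 and 4741 CPM in janus-2 (8024 and 8630 counts). Both janus-2 values lay between the values of Col-0. The log2 fold change was 0.049 ± 0.36 (edgeR adjusted p = 0.917), with a 95% interval from DESeq2 of -0.76 to 0.65.

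miR319b had 3178 and 1786 CPM in Col-0 against 2686 and 3487 CPM in janus-2, and the genotypes overlapped (log2 fold change 0.31 ± 0.42, edgeR adjusted p = 0.505). Without Col-0 replicate 1 this value was 0.81 and passed the test (edgeR adjusted p = 0.0329), and over all alternatives the adjusted p reached 0.969. miR319c was rarer, with 191 and 96.0 CPM in Col-0 against 123 and 138 CPM in janus-2 (log2 fold change -0.14 ± 0.46, edgeR adjusted p = 0.836). In each entry Col-0 replicate 1 was well above Col-0 replicate 2, and the spread in Col-0 was wider than the difference between the means. The mature forms are near-identical, so that the entries may share reads and are not independent. How such reads were assigned is not given in the sources used here.

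The sign of the log2 fold change depended on the scaling of the small RNA libraries for miR319a and miR319b, while miR319c was below 0 under all 5 scalings. Relative to the median of all entries, each of the 3 kept its sign. Under TMM the median over all tested entries was 0.11 (log2), and under scaling by all aligned reads it was -0.23. Relative to these medians miR319a stood at -0.065 and -0.11, miR319b at 0.20 and 0.14, and miR319c at -0.25 and -0.31. Expressed as CPM of aligned reads, miR319a was at 190 and 109 in Col-0 and at 111 and 124 in janus-2, and the genotypes still overlapped. Of the calls over all entries, 43.9% were lower under TMM (43 lower, 55 higher) and 65.9% under all aligned reads (83 lower, 43 higher).

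**Figure D4:**
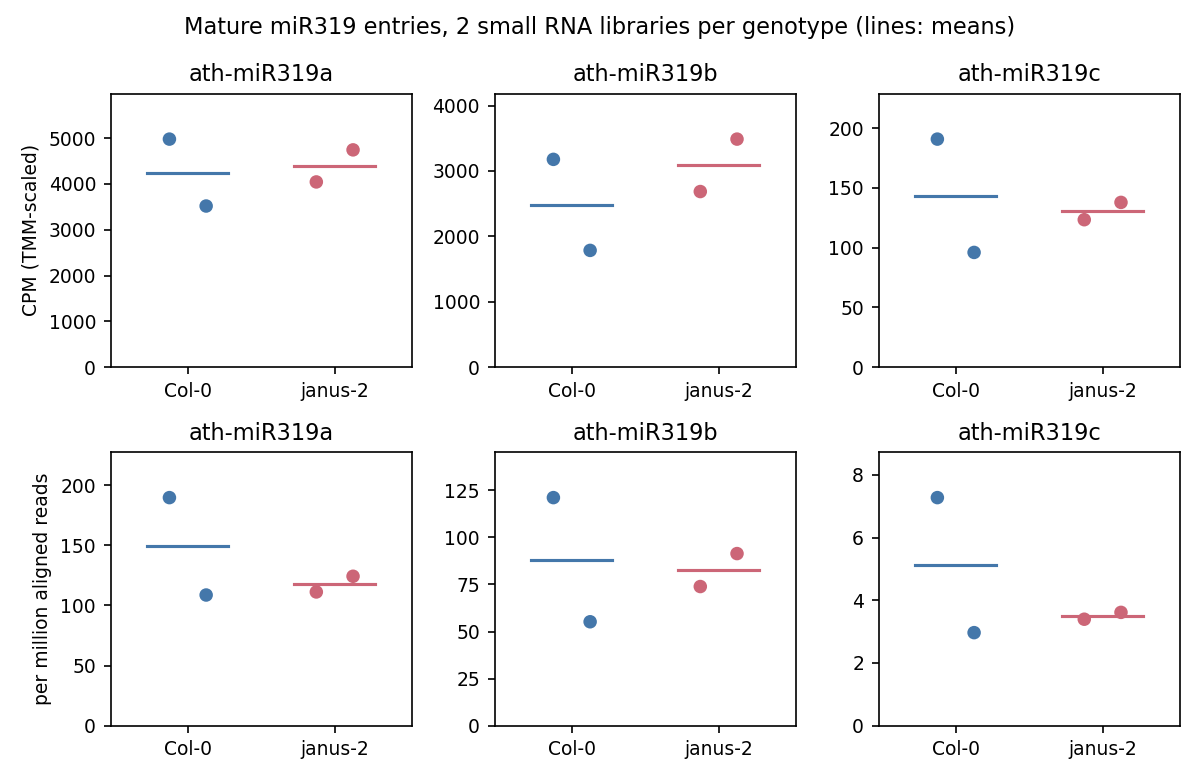
Levels of the 3 mature miR319 entries in the 2 Col-0 and the 2 janus-2 small RNA libraries, as TMM-scaled CPM (top row) and scaled to all aligned reads (bottom row), with each vertical axis from 0 and lines at the means. In all 6 panels the Col-0 points span the janus-2 means.

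The miR159 family is related to miR319 in sequence and targets the GAMYB-like genes. Of its 4 entries, miR159a (log2 fold change 0.28, edgeR adjusted p = 0.147), miR159b-3p (0.11, adjusted p = 0.731) and miR159c (0.023, adjusted p = 0.966) did not pass the test. The passenger strand miR159b-5p fell by 1.56 on the log2 scale, from 874 and 1705 CPM in Col-0 to 467 and 405 CPM in janus-2 (edgeR adjusted p = 0.0164).

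The precursor transcripts of miR319 were close to the limit of detection in the mRNA libraries, where 3 counts stood for 0.0457 to 0.0532 CPM. MIR319B (AT5G41663) had 19 and 27 counts in Col-0 against 10 and 12 in janus-2, and both janus-2 libraries were the lower ones. Its log2 fold change of -1.04 ± 0.72 narrowly missed the test (edgeR adjusted p = 0.0508). It passed with DESeq2's size factors, table totals and upper quartiles, and over all alternatives the adjusted p ran from 0.0371 to 0.266. MIR319A had 5 and 12 counts in Col-0 against 2 and 6 in janus-2, and MIR319C had 3 and 1 against 1 and 0. Neither of these passed the filter on low counts.

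Genes described as targets of CIN proteins moved in both directions. Of 19 such genes 16 were tested, and 6 were higher, 3 were lower and 7 were not called, with a median log2 fold change of 0.080. Over all tested genes 18.5% were higher and 27.2% lower (45.7% in all). LOX2, the chloroplast lipoxygenase of jasmonate synthesis that TCP4 activates, had 675 and 665 CPM in Col-0 against 576 and 567 CPM in janus-2 (log2 fold change -0.23), below the fold threshold.

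Among genes that CIN proteins are known to activate, IAA3 (SHY2), a repressor of auxin responses, rose from 13.4 and 12.4 CPM to 35.9 and 35.5 CPM (log2 fold change 1.47). KRP1, an inhibitor of cell cycle kinases, went from 9.96 and 9.04 CPM to 23.9 and 22.2 CPM, a rise by 1.28 on the log2 scale. VND7, a regulator of vessel formation, rose by 1.04, from 1.18 and 1.55 CPM to 2.55 and 3.12 CPM. In the same group ARR16, a cytokinin response regulator, fell by 1.57 on the log2 scale, from 20.7 ± 0.967 to 6.98 ± 0.239 CPM (SD, n = 2). Another gene of the list, the auxin-inducible homeobox gene HAT2, fell by 0.71 from 30.2 and 31.5 CPM to 18.4 and 19.3 CPM.

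Among genes that CIN proteins are known to repress, the boundary genes CUC1 and CUC3 rose. CUC1 went from 1.38 and 1.80 CPM to 4.86 and 4.58 CPM (log2 fold change 1.56) and CUC3 from 6.25 ± 0.354 to 13.6 ± 0.529 CPM (SD, n = 2, log2 fold change 1.13). CUC2 did not pass the test (0.011, edgeR adjusted p = 0.934). The homeobox gene KNAT2 rose by 0.87 on the log2 scale, from 10.5 and 10.6 CPM to 19.4 and 19.2 CPM. In contrast CDT1B, which licenses DNA replication and which TCP24 represses with ABAP1, fell by 0.68 from 15.1 and 16.7 CPM to 9.59 and 10.3 CPM. CDT1A did not pass (-0.0017, edgeR adjusted p = 0.970). CDT1B fell together with 6 of the 8 genes of dividing cells, and their part in its value was not tested.

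Of 11 partners and regulators of CIN proteins, 2 were lower and 9 were not called, against 27.2% lower and 45.7% called among all tested genes. By the adjusted p alone 6 were lower and 3 higher. SPL/NZZ, which starts the formation of sporocytes and binds CIN proteins as a repressor, fell from 11.4 and 10.5 CPM in Col-0 to 1.87 and 2.16 CPM in janus-2, or by 2.45 ± 0.17 on the log2 scale. It fell together with the tapetum and pollen genes, and their part in its value was not tested. TIE1, which links CIN proteins to the TOPLESS co-repressors, fell by 1.48 on the log2 scale, at 36 and 43 counts in Col-0 against 12 and 16 in janus-2 (edgeR adjusted p = 0.000901). The TOPLESS gene TPL (0.40) and its relatives TPR2 (-0.56) and TPR3 (-0.53) stayed within 1.5-fold.

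**Figure D5:**
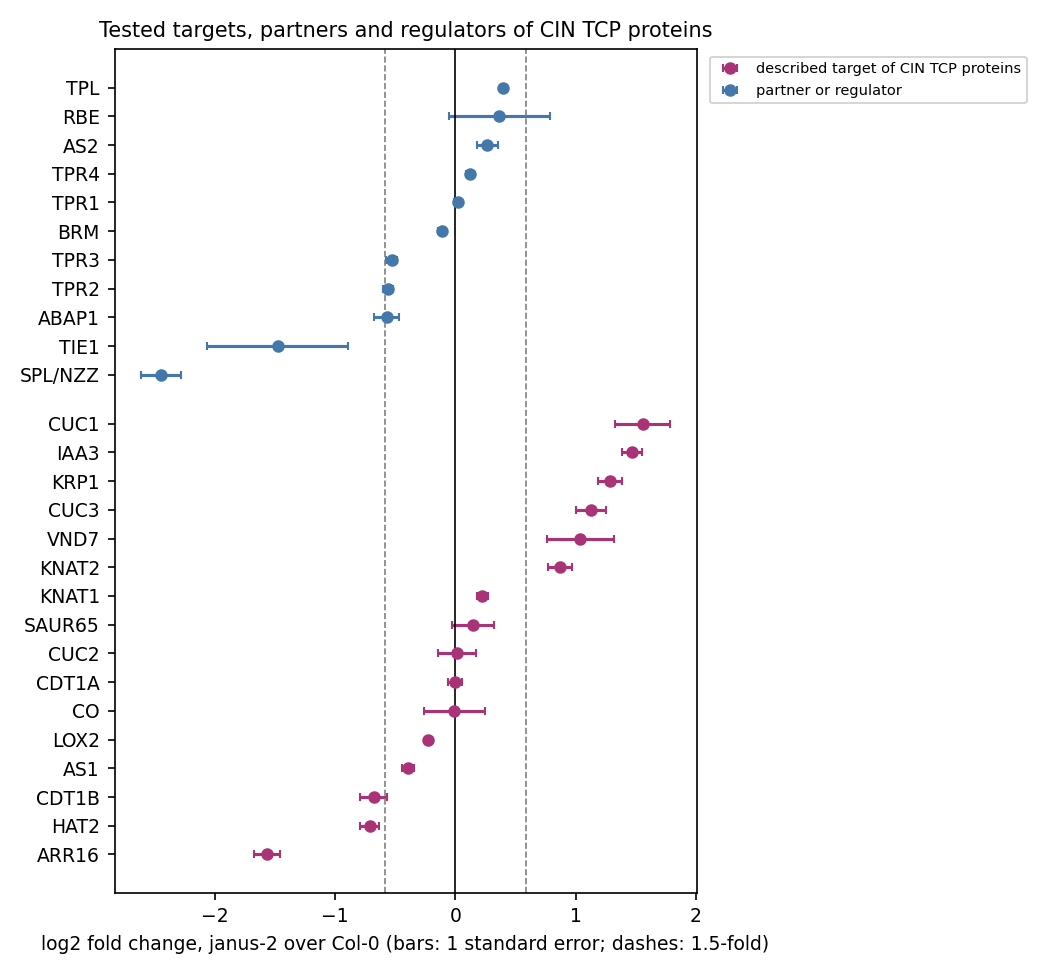
Log2 fold changes (janus-2 over Col-0, edgeR) of the 16 tested target genes and the 11 partners or regulators of CIN proteins, with bars of 1 standard error from DESeq2 and dashed lines at 1.5-fold. Targets spread from -1.57 to 1.56, and SPL/NZZ lies lowest among the partners at -2.45.

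The patterns of the 5 genes over the 4 libraries were shared by many others. By the distance between log2 CPM values centred on the mean of each gene, the gene nearest to TCP10 among 14399 genes of at least 10 CPM was AT2G01190 (PDE331), at 0.0029, and 512 genes lay within 0.1. For TCP24 it was AT2G33820 (MBAC1), at 0.020, with 185 genes within 0.1. The nearest to TCP4 was AT2G46900, at 0.013, with 720 genes within 0.1. The nearest to TCP2 was AT1G63660, at 0.0052, with 1409 genes within 0.1, and that to TCP3 was AT1G23220, at 0.044, with 33. With 2 libraries in each genotype, such a likeness cannot be told apart from a like fold change.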

How the data were processed

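For each library the authors deposited unnormalised counts in the layout of HTSeq, on 28775 genes for mRNA or on 427 mature miRNAs for small RNA. The submitters' processing notes name Bowtie, HTSeq and TAIR10, and the settings and the use of strand are not given in the sources used here. Rows that name no feature were left out. They held 1.11% to 1.13% (no gene) and 2.15% to 2.34% (ambiguous) of the mRNA total, which included every such row. For small RNA the total of aligned reads held only those on a listed miRNA, on none or ambiguous. Of that total 96.4% to 97.1% lay on no listed miRNA. Tests used the quasi-likelihood F test of edgeR 4.0.16 in R 4.3.3 after filterByExpr and TMM, with Benjamini-Hochberg adjustment over all tested features and the 4 libraries of an assay in each fit. The threshold was an adjusted p of 0.05, with a fold change of 1.5 for genes. Log2 fold changes are those of edgeR, and standard errors and 95% intervals those of DESeq2 1.42.0. CPM are given per library or as mean ± SD over 2 libraries. Replicates differed by more than sampling noise (chi-square per degree of freedom between 2.34 and 145).

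Symbols, gene spans and neighbours came from the RefSeq annotation of TAIR10.1, which matched 28009 of 28775 genes. The text names the 5 genes, the miR319 and miR159 entries, the MIR319 precursors, the other CIN genes, JANUS, and called genes of each list. Where more than 6 of a list were called, it names the 3 largest rises and falls with a mean of at least 1 CPM. Further genes outside this rule (AP1, SEP1, AG, SEP3, LFY, UFO, CUC2, CUC3, VND7, KNAT2, LOX2, CDT1A, CLV3, TPL, TPR2 and TPR3) were chosen after their values were seen. The gene nearest in pattern was sought among tested genes that averaged 10 CPM or more, by the Euclidean distance of centred log2 CPM (prior count 2). The genes and lists were chosen with earlier results of these data known. Alternatives changed the scaling, the tool, the filter or the fold threshold, added the replicate number as a block, or left out 1 library at a time. Figures were drawn with matplotlib 3.10.9.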

Additional observations from a re-analysis of the deposited data

How the results depend on the processing

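The call of TCP10 held under all alternatives run, with a log2 fold change between 0.66 and 0.77. TCP24 stayed below 1.5-fold in all of them (0.41 to 0.58), as did TCP2 (0.11 to 0.21) and TCP4 (-0.32 to -0.21). TCP3 lay between -0.0020 and 0.20 when each library was left out in turn and changed sign without janus-2 replicate 1. With no fold threshold, TCP2 (0.18), TCP4 (-0.25) and TCP24 (0.49) would be called, as would 9778 lower and 9324 higher genes. Leaving out each mRNA library in turn gave 6018 to 6268 lower and 4207 to 4236 higher genes.

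MIR319B passed the test with DESeq2's size factors (-1.05), upper quartiles (-1.11) and table totals (-1.06). Values of miR319a and miR319b changed sign with the scaling, and no miR319 entry passed the test under another scaling. With DESeq2's size factors in edgeR miR319a was -0.052 and miR159c -0.063. With table totals miR319a was -0.14, miR159b-3p -0.067 and miR159c -0.16. With upper quartiles miR319a was -0.31, miR319b -0.056, miR159a -0.048, miR159b-3p -0.21 and miR159c -0.30, with 67 miRNA entries lower. With all aligned reads miR319a was -0.34, miR319b -0.093, miR159a -0.076, miR159b-3p -0.22 and miR159c -0.34, with 83 entries lower. The DESeq2 test gave -0.052 for miR319a, -0.063 for miR159c and 36 higher entries. The cause of these changes was not tested beyond the shift of the median of all entries.

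Leaving out each small RNA library in turn gave -0.22 to 0.34 for miR319a, -0.080 to 0.81 for miR319b, -0.59 to 0.46 for miR319c, -0.11 to 0.35 for miR159b-3p and -0.32 to 0.25 for miR159c, with 38 to 51 lower and 36 to 71 higher entries. The 36 higher entries were those without janus-2 replicate 1.

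Same-numbered replicates had no link in the labels beyond the number. Their deviations from the genotype means correlated at -0.011 for mRNA and -0.15 for small RNA. With the replicate number as a block, 6180 genes were lower and 4224 higher, TCP10 stood at 0.73 and TCP3 at 0.10, 41 miRNA entries were lower and 49 higher, and miR159c was -0.00037. With the numbers crossed for small RNA, chosen after seeing the data, 50 entries were lower and 58 higher, miR159c was -0.00074, and miR159a passed the test at 0.28 (edgeR adjusted p = 0.0344, against up to 0.940 over all alternatives). With 2 libraries per group no outlier test was applied. MIR319B, TCP6 and TIE1 had fewer than 50 counts in each library, and MIR319A and MIR319C were too low to be tested.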
